A study of Arabidopsis thaliana with 8 samples.

Results

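The transcripts of AHA1 (AT2G18960) and AHA2 (AT4G30190), the Arabidopsis plasma membrane proton pumps mutated in this series, were followed through 2 probe sets, 266939_at and 253609_at, out of 22746 probe sets tested on 8 single-colour Affymetrix arrays. The probe sets were picked by their assignment to these genes, with signals of these arrays already known. Their levels in the mutant of the same gene are therefore given as a description, with no test. The platform annotation used here names neither probe set, so the assignment is the one that came with the choice of members. The RefSeq gene table lists the loci as HA1 and HA2.

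All seedlings were of the Col background, 5 days old, light grown and kept vertically on Murashige and Skoog medium, and total RNA of the seedlings was hybridised. Wild type had 2 arrays. The aha1 mutant had 3 arrays, of which 2 carried the allele aha1-6 and 1 the allele aha1-7. The aha2 mutant likewise had 2 arrays of aha2-4 and 1 of aha2-5. A string in the sample descriptions divided the arrays into a first set of 3, with wild type, aha1-6 and aha2-4, and a second set of 5 that also held aha1-7 and aha2-5. Whether samples of 1 genotype were grown as separate cultures is not stated in the labels, so errors and p-values reflect sample-to-sample spread that may be technical. The labels do not give the kind or position of the lesion in any allele.

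Plasma membrane proton pumps are P-type ATPases that use ATP to move protons out of the cell. The resulting membrane potential and acid cell wall drive nutrient uptake through proton-coupled transporters and potassium channels, stomatal opening and cell expansion. The C-terminal end of each pump holds it back until a threonine near the end is phosphorylated and bound by 14-3-3 proteins. AHA1 and AHA2 are the most strongly expressed members of the family in vegetative tissue and can substitute for each other: plants lacking either one grow almost normally, whereas loss of both is lethal to the embryo. AHA1 is also known as OST2, from dominant mutants whose stomata fail to close, and AHA2 is best studied as a root pump.

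The 3 alleles aha1-6, aha1-7 and aha2-4 each had a low signal at the probe set of the mutated pump, to very different depths. The array labelled aha2-5 kept 64.2% of its set's wild type AHA2 signal, just under the lowest array with an unmutated AHA2. Values are signals in the deposited linear units, or log2 differences after normalization where so named. Signals of the 2 probe sets are not compared with each other, because probe sets differ in brightness at equal transcript level. In RNA of whole seedlings, fewer cells of a type and less RNA per cell cannot be told apart.

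The AHA1 probe set had signals of 10992.5 and 11568.5 on the wild type arrays of the first and second set. On the aha1-6 arrays it had 3800.1 and 4629, and on the aha1-7 array 60.5. The arrays of the aha1 mutant thus lay below both wild type arrays without overlap, with the aha1-6 arrays between wild type and aha1-7.

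Relative to wild type within the set, AHA1 kept 34.6% and 40.0% of the signal on the aha1-6 arrays and 0.523% on the aha1-7 array. These values correspond to log2 differences of -1.52, -1.30 and -7.55 after normalization. On the aha1-7 array 22.5% of all probe sets had a lower signal than AHA1, whose 60.5 lay under the array's 25th percentile of 73.5, so that what was left cannot be told from the range of dim probe sets. On the aha1-6 arrays 92.5% and 93.9% of probe sets were still dimmer than AHA1. Without detection calls in the files, no level can be called absent.

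Among the 11373 brighter probe sets (the upper 50% by mean over all arrays), 1 had a larger drop than AHA1 on the aha1-6 array of the first set and 9 on that of the second. Over all 22746 probe sets, of which the dimmer ones scatter widely on the log2 scale, 911 and 1221 had a larger drop. On the aha1-7 array no probe set, bright or dim, had a larger drop, the next being at -5.37 among the brighter ones. Within the second set, aha1-7 lay 6.24 log2 units below aha1-6 at AHA1, the largest difference between these arrays over all 22746 probe sets. The aha1-7 array differed from the aha1-6 array by more than 2-fold at 1055 brighter probe sets (9.28%), AHA1 among them.

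The AHA2 probe set had signals of 15198 and 18489 on the wild type arrays. On the aha2-4 arrays it had 831 and 932, and on the array labelled aha2-5 it had 11866. The aha2-4 arrays lay far below every other array. In deposited signal, 11866 lay just under the 12729 of the aha1-6 array of the same set, by less than the wild type arrays differed. After normalization the step from aha2-5 to that aha1-6 array exceeded the 0.15 between the wild type arrays.

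In aha2-4, AHA2 kept 5.47% and 5.04% of the wild type signal of its set, or log2 differences of -4.21 and -4.18, closer to each other than those of the aha1-6 arrays at AHA1. Of the 11373 brighter probe sets none had a larger drop on either array, and the next lowest were at -1.66 and -1.76. Over all probe sets 6 and 9 had a larger drop. The remaining 831 and 932 were well above the array medians of 383 and 358, with 67.8% and 70.5% of probe sets dimmer.

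On the array labelled aha2-5, AHA2 kept 64.2% of the wild type signal of its set, a log2 difference of -0.66, and 165 brighter probe sets (2419 of all) had a larger drop. AHA2 was the largest difference among the brighter probe sets between the arrays of aha2-5 and aha2-4 in the second set, at 3.53 log2 units (a 12.7-fold higher signal in aha2-5), the next being 1.84. Over all 22746 probe sets 93 differed by more. These arrays differed by more than 2-fold at 46 of 11373 brighter probe sets (0.404%), against 69 between the aha2-4 arrays of the first and second set. At this probe set the array labelled aha2-5 thus had no drop as deep as that in aha2-4. Its -0.66 still lay below the 5th percentile of the brighter probe sets on that array, at -0.47. What the label means for the transcript was not tested. The position of the probes in the transcript was not among the sources used here. A lesion outside that stretch need not lower their signal, so the signal neither checks the genotype nor shows that an intact transcript was made. The name aha2-5 stands for this array by its label only.

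**Figure D1:**
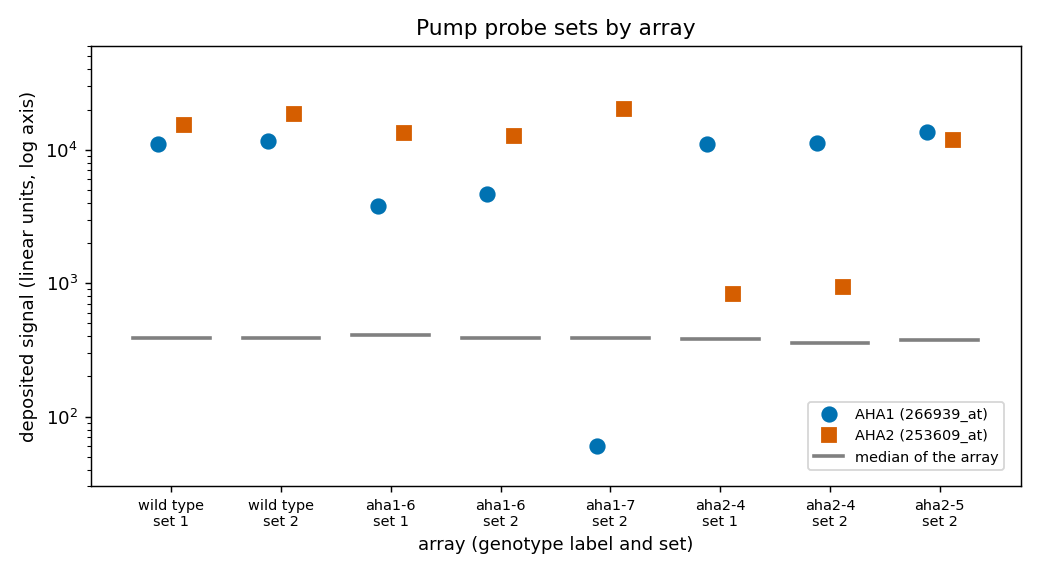
Deposited signal of the AHA1 (circles) and AHA2 (squares) probe sets on each of the 8 arrays, on a log axis, with the median signal of each array as a grey line; arrays are labelled by allele and set, and each point is 1 array. AHA1 is at 3800.1 and 4629 in aha1-6 and 60.5 in aha1-7, AHA2 at 831 and 932 in aha2-4 and 11866 on the array labelled aha2-5.

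Because the alleles differed this much, a single mean per mutant described neither gene well. The AHA1 signal was 2830 ± 2434 (SD, n = 3) over the aha1 arrays and 11281 ± 407 (SD, n = 2) in wild type. The AHA2 signal was 4543 ± 6343 (SD, n = 3) over the aha2 arrays and 16844 ± 2327 (SD, n = 2) in wild type. The linear model by group, adjusted for set, gave log2 differences of -3.28 (SE 1.82) for AHA1 in aha1 and -3.13 (SE 1.07) for AHA2 in aha2, both against wild type. Without the aha1-7 array the AHA1 value was -1.43 (SE 0.15), and without the aha2-5 array the AHA2 value was -4.17 (SE 0.32).

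With each allele as a group of its own, a fit added after the data had been seen, AHA1 had a log2 difference from wild type of -1.41 (SE 0.15) in aha1-6 and -7.57 in aha1-7, whose size is not a measured fold because the aha1-7 signal lay in the dim range. AHA2 had -4.20 (SE 0.16) in aha2-4 and -0.61 (SE 0.21) in aha2-5. The aha1-7 and aha2-5 values rest on 1 array each, which is assumed to vary like the arrays of the other groups. As background for the arrays without overlap, aha1 lay wholly below wild type at 8.82% of all probe sets; for aha2 the arrays lay wholly below wild type at 10.2%.

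The second question was whether the unmutated pump changed. Its transcript did not pass the test in either mutant or in any allele, and no probe set at all passed in these fits. Where no probe set passes, not passing does not show that a transcript was unchanged. The AHA1 probe set was the steadier of the pair: its signals were 11127 and 11282 on the aha2-4 arrays and 13629 on the array labelled aha2-5, against 10992.5 and 11568.5 in wild type. The aha2-4 values lay between the wild type arrays, and the aha2-5 value above both.

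Over these 5 arrays, in which AHA1 is not the mutated gene, the AHA1 signal had a coefficient of variation of 9.29%, and 93.8% of the brighter probe sets had a larger SD on the log2 scale across the same arrays. In aha2-4, where AHA2 was at its lowest, AHA1 differed from wild type by -0.05 on the log2 scale (SE 0.15, 95% confidence interval -0.50 to 0.41; limma, adjusted p = 0.966). In aha2-5 the difference was 0.10 (SE 0.20, interval -0.48 to 0.69; limma, adjusted p = 0.961). The intervals allow changes of AHA1 in aha2-4 between 0.709 and 1.32 times wild type.

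The AHA2 probe set varied more. In the aha1-6 arrays it had 13365 and 12729, below both wild type arrays at 15198 and 18489, and in the aha1-7 array it had 20334, the highest of all 8. The aha1 arrays as a group therefore lay on both sides of wild type.

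Over the 5 arrays in which AHA2 is not mutated, its coefficient of variation was 20.5%, and 43.0% of the brighter probe sets had a larger SD on the log2 scale. The fitted difference from wild type was -0.35 in aha1-6 (SE 0.16, 95% confidence interval -0.83 to 0.13; limma, adjusted p = 0.727) and 0.33 in aha1-7 (SE 0.21, interval -0.29 to 0.95; limma, adjusted p = 0.420). On the linear scale the intervals run from 0.562 to 1.09 times wild type for aha1-6 and from 0.819 to 1.93 times for aha1-7. The difference between the alleles, aha1-7 minus aha1-6, was 0.68 (SE 0.21, interval 0.06 to 1.30) and did not pass after adjustment (limma, adjusted p = 0.210).

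In the fit by group, which averages the alleles, AHA2 had a log2 difference of -0.25 (SE 1.07) in aha1 and AHA1 one of 0.19 (SE 1.82) in aha2, against wild type (limma, adjusted p = 0.982 and 0.9998). The SE of AHA1 in aha2 is large although the aha2 arrays agree closely, since all groups share 1 estimate of the spread and that estimate contains the gap between aha1-6 and aha1-7. With limma 0 of 22746 probe sets (0%) passed in either mutant by group, where 1139 (5.01%) had an unadjusted p under 0.05 in aha1 and 919 (4.04%) in aha2. In the fit by allele none passed either (0%). At an unadjusted p under 0.05 the share was 7.14% in aha1-6, 21.6% in aha1-7, 6.31% in aha2-4 and 6.92% in aha2-5.

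**Figure D2:**
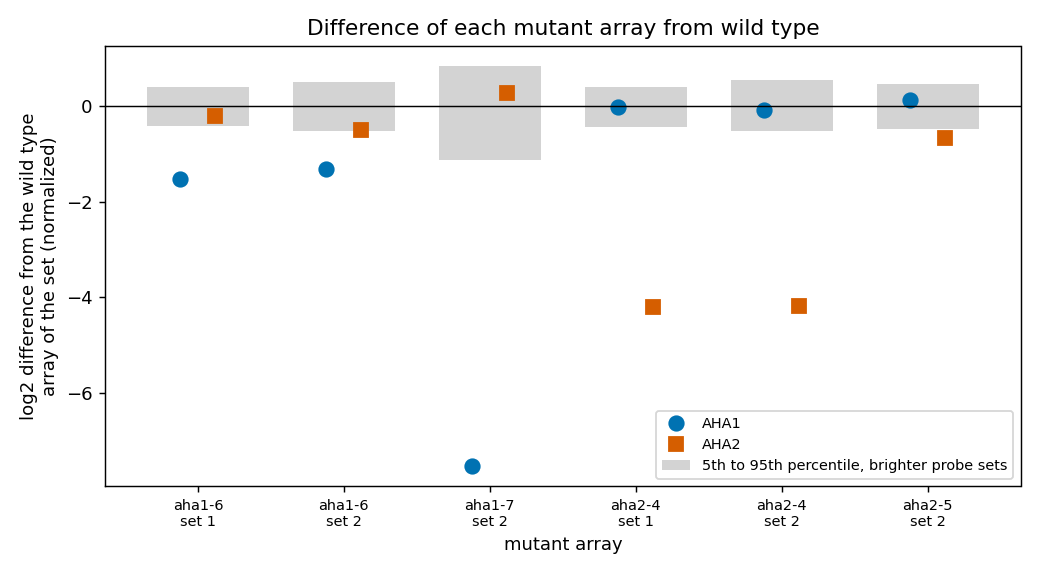
Normalized log2 difference between each of the 6 mutant arrays and wild type in the same set, for AHA1 (circles) and AHA2 (squares); grey bars span the 5th to 95th percentile of the 11373 brighter probe sets on that array. The unmutated pump lies inside the grey bar on every mutant array, whereas AHA1 in the aha1 arrays and AHA2 in the aha2 arrays lie below it.

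In order of signal, AHA1 ran from aha1-7 at 60.5 through the aha1-6 arrays at 3800.1 and 4629 to the 5 arrays of the other genotypes between 10992.5 and 13629, with a median of 11282. Of these 5, the array labelled aha2-5 lies above the other 4 by more than the wild type arrays differ from each other, on 1 array and without passing the test. AHA2 ran from the aha2-4 arrays at 831 and 932 through aha2-5 at 11866 to 5 arrays between 12729 and 20334, with a median of 15198. From aha2-5 upward, no array differs from the next in deposited signal by more than the wild type arrays differ from each other. After normalization the same arrays stand at 13.44, 13.60, 13.74, 13.95, 14.10 and 14.38. There the steps from aha2-5 to aha1-6, from aha1-6 to wild type and from wild type to aha1-7 each exceed the 0.15 between the wild type arrays.

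The aha1-7 array stood apart from the rest over the whole table. Its median correlation with the other arrays over the brighter probe sets was 0.887, against 0.959 to 0.971 for the others, and its differences from wild type followed gene length. At named brighter probe sets the median log2 difference from the wild type array was -0.79 in the shortest 10% of genes and 0.46 in the longest 10%. On the other 5 mutant arrays the medians of these classes lay between -0.15 and 0.11. AHA1 and AHA2 span 6109 and 5853 bases from gene start to gene end, introns included, and both fall into the longest class.

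Read against that class, AHA2 lay 0.18 log2 units below the class median on the aha1-7 array (difference -0.18), where it lay above wild type in plain signal. On the aha1-6 arrays it lay at -0.24 and -0.58 relative to the class median. The 3 aha1 arrays were thus on the same side of their class median at AHA2, whereas they were on both sides of wild type. On the aha1-6 array of the second set AHA2, at -0.50 from wild type, lay below the 5th percentile of the class, at -0.39. On that of the first set, at -0.21, it lay above the 5th percentile of -0.33. On the aha1-7 array, at 0.29, it lay above that of -0.10. The part of the length trend in the AHA2 value was not tested. The low AHA1 signal runs against the trend, at -8.01 relative to the class median on the aha1-7 array. AHA1 lay at 0.09, 0.08 and 0.16 above the class median on the aha2 arrays.

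**Figure D3:**
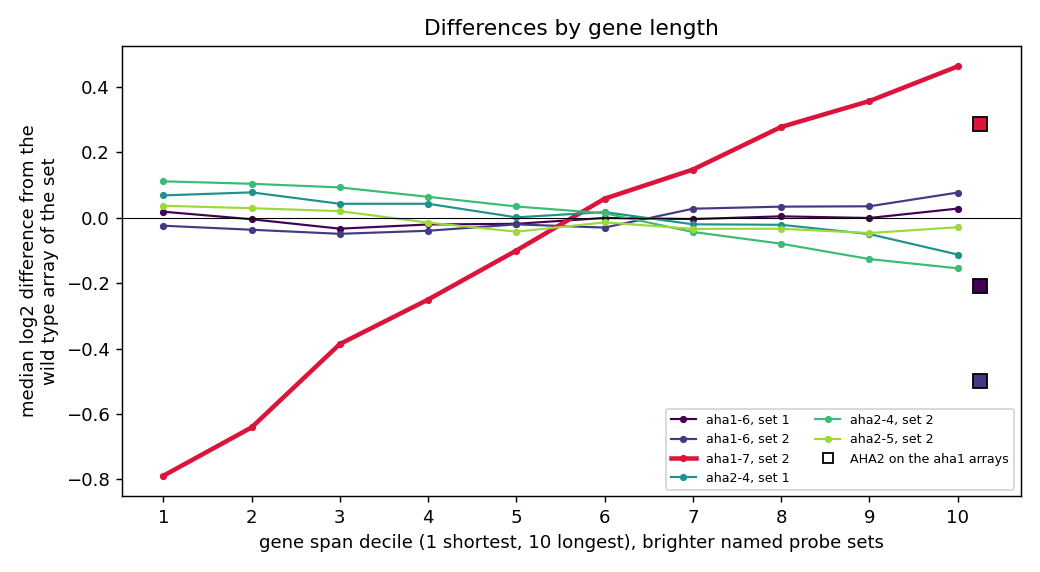
Median normalized log2 difference between mutant and wild type within a set, by decile of gene span over the named brighter probe sets, with a line for each mutant array; squares beside decile 10 give AHA2 on the 3 aha1 arrays in the colour of their line. The aha1-7 line runs from -0.79 to 0.46, and its AHA2 square lies under the end of the line although it lies above 0.

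The genes near the pumps give a partial view of how local the low signals were. Of the genes around each pump, the 5 nearest on either side with a named probe set were taken, 10 for AHA1 and 10 for AHA2, of which 4 and 6 were in the brighter 50%. The nearest lay 2 genes away on either side of AHA1, and 2 and 4 genes away from AHA2. The furthest were 11 and 18 genes away, and no directly adjacent gene had a named probe set. At the brighter neighbours of AHA1 the log2 difference from wild type lay between -0.40 and 0.38 on the aha1-6 arrays, where AHA1 was at -1.52 and -1.30. On the aha1-7 array they lay between -1.01 (AT2G18980) and 0.81 (AT2G18940), where AHA1 was at -7.55. At the brighter neighbours of AHA2 the values lay between -0.30 and 0.72 on the aha2-4 arrays, where AHA2 was at -4.21 and -4.18. On the array labelled aha2-5 they lay between -0.58 and 0.45, with AHA2 just below them at -0.66.

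None of the 20 neighbours passed in either mutant (limma, where 0% of all probe sets passed). Among the AHA2 neighbours are XTH18 and XTH19, which encode xyloglucan endotransglucosylase/hydrolases that remodel the cell wall. XTH19 had signals of 910 and 732 in wild type, 619 and 349 in aha1-6, 531 in aha1-7, 712 and 780 in aha2-4 and 538 in aha2-5. Its aha1 arrays lay below both wild type arrays, while the aha2 arrays overlapped the wild type range. Such a lack of overlap was found at 8.82% of all probe sets after normalization. XTH18 also had lower signals in aha1, at 404, 433 and 375 against 692 and 560 in wild type. The same held for AT2G18980, at 2372, 2955 and 1717 against 3141 and 3303. AT4G30310 went the other way, at 2962, 3441 and 2958 in aha1 against 2408 and 2396. At the other brighter neighbours the aha1 arrays lay neither wholly below nor wholly above wild type. Dim neighbours scattered widely, from -3.78 to 2.71, and carry little information.

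**Figure D4:**
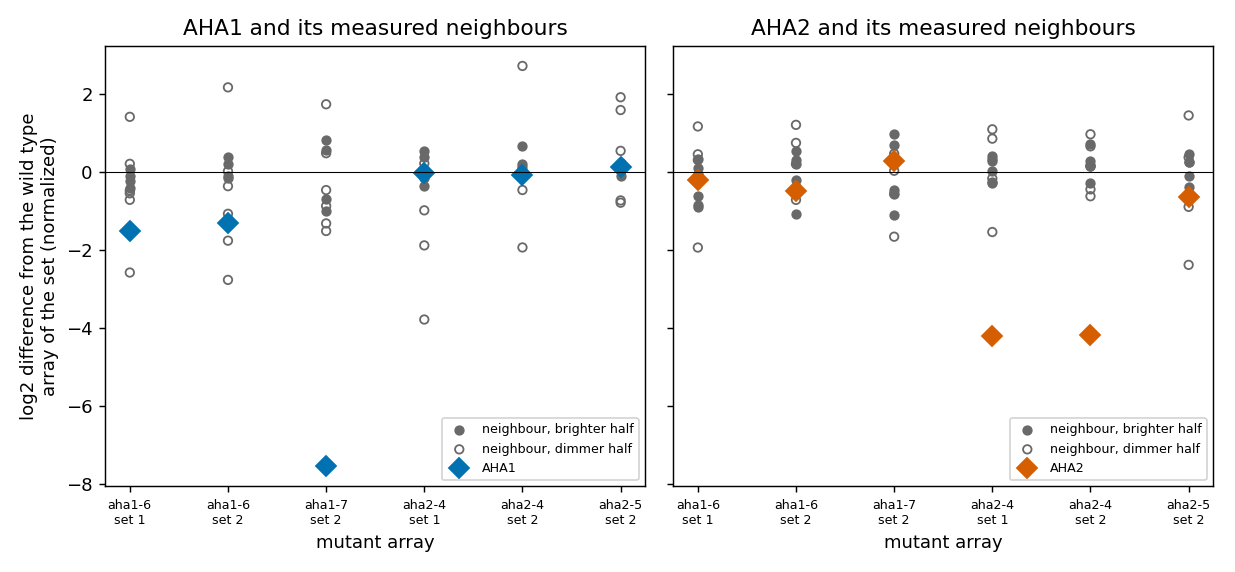
Normalized log2 difference between each mutant array and wild type within its set, for AHA1 (left) and AHA2 (right) as diamonds and for 10 measured neighbouring genes each as circles, filled for probe sets in the brighter 50% and open for the dimmer. AHA1 in aha1-7 and AHA2 in aha2-4 lie far below all their neighbours, and AHA2 on the array labelled aha2-5, at -0.66, lies just below the brighter ones, the lowest of which is at -0.58.

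Probe sets with the most similar pattern were sought among 5921 named probe sets of the brighter 50%, by Pearson's correlation of normalized log2 values over the 8 arrays, as a description across arrays that share their groups. For AHA1 they were SPR1, AT1G06790 and AT4G32870 (r = 0.99 each) and AT4G10300 and AT3G24830 (r = 0.98 each). The likeness rests on the aha1-7 array. SPR1, a small microtubule-associated protein that keeps growth straight, had a signal of 3596 there against 5436 to 6486 on the other 7 arrays, and spans 1269 bases, in the shortest class of genes. Over all 8 arrays its log2 range was 0.83, whereas AHA1 differed by -7.55 between aha1-7 and wild type.

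For AHA2 the closest were AT3G20720 (r = 0.96), AT2G16005 (r = 0.94), and AT1G74860, AT3G55080 and AT3G33530 (r = 0.90 each). AT2G16005 had the widest range of the 5, with 1057 and 1847 in wild type, 1426 and 1453 in aha1-6, 1410 in aha1-7, 448 and 519 in aha2-4 and 1107 in aha2-5. Its aha2-4 arrays were the lowest of the 8, and its aha2-5 array lay between the wild type arrays. AT3G20720 had 504 and 483 in aha2-4, 667 in aha2-5 and 656 and 692 in wild type. In both, as in AHA2, the array labelled aha2-5 was closer to wild type than to aha2-4, which the measure of likeness selects for.

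Other genes of the pathway could be followed only in small part, since the annotation named none of the 9 further pump family members, none of 23 other P-type pumps, none of 30 proton-coupled transporters and none of 7 potassium channels on the lists used. Of 28 pump regulators 5 were named. All 5 had positive fitted log2 differences in aha1, with a median of 0.33 against 0.00 over all probe sets, and in aha2 the median was -0.01, as over all probe sets, with 2 positive and 3 negative. None passed in either mutant (limma, 0% of all probe sets called), and none had an unadjusted p under 0.05.

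PSY1R, a receptor kinase that phosphorylates the pump and activates it, had a log2 difference of 0.38 (SE 0.23) in aha1, with 0.22, 0.55 and 0.33 on the single arrays against wild type. PATROL1, which carries AHA1 to the plasma membrane of guard cells, had 0.33 (SE 0.19), with 0.46, 0.20 and 0.28. PP2C-D2, of the phosphatase group that inactivates the pump, had 0.22 (SE 0.18). FER, a receptor kinase whose peptide ligand RALF1 leads to inhibition of AHA2, had 0.35 (SE 0.34). Its arrays were uneven, at 0.00, 0.10 and 1.06, the last on the aha1-7 array.

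Of the tissue markers, the annotation named 1 of 8 shoot photosynthesis genes, 2 of 10 root genes and none of 3 seed genes. RCA, the activase of Rubisco, had signals from 35270 to 57927, and the root gene PYK10, a beta-glucosidase, had 24133 to 39722 over the 8 arrays. EXPA7, an expansin of root hairs, was dimmer, at 423 and 286 in wild type, 350 and 265 in aha1-6, 142 in aha1-7, 448 and 510 in aha2-4 and 358 in aha2-5. Its log2 difference from wild type was -0.49 (SE 0.35) in aha1 and 0.45 (SE 0.35) in aha2, neither past the threshold, against 0.02 and -0.13 for PYK10. Its part in the pump values was not tested.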

How the data were processed

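The authors deposited 1 linear intensity per probe set and array. The submitters' processing notes name Affymetrix Expression Console 1.1 without a summarisation algorithm. Probe sequences and detection calls were not used. The table held 22810 probe sets, 64 of them array controls. Array medians ran from 358.1 to 410.2. The number of arrays limits the precision. Values were taken as log2(value + 1), quantile normalized over all 8 arrays, and controls were left out. Group and set effects were estimated at 22746 probe sets with limma 3.58.1 in R 4.3.3 (4 residual degrees of freedom), with Benjamini-Hochberg adjustment over all of them and a threshold of 0.05. The fit was tested on simulated data with no set effect and no difference between alleles, unlike these arrays. A fit with each allele as a group (2 residual degrees of freedom) was added after the data had been seen. The first part of a named difference is the group named first. Percentages of wild type use the deposited signals. Gene names came from the platform annotation, with symbols from the RefSeq table of TAIR10.1; 1 gene was given for 13513. The rule named the 2 members, the 5 most similar named probe sets for each, up to 4 genes per list by smallest p, and the 5 nearest measured neighbours on each side; AHA1 and AHA2 levels in their own mutant were not tested. Members and lists were chosen with earlier results of these data known. Alternatives covered the offset, normalization, set term, dim probe sets, gene length and single arrays. Sequences were not used here.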

Additional observations from a re-analysis of the deposited data

Results flagged for a closer look

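After normalization, the alleles of a mutant lay on opposite sides of their set's wild type at the unmutated pump. For AHA2, the aha1-6 arrays were at -0.21 and -0.50 and the aha1-7 array at 0.29, a fitted difference of 0.68 between aha1-7 and aha1-6 (SE 0.21; limma, adjusted p = 0.210). For AHA1, the aha2-4 arrays were at -0.02 and -0.07 and the array labelled aha2-5 at 0.13, a fitted difference of 0.15 (SE 0.20; limma, adjusted p = 0.926). Each second allele had 1 array, and neither difference passed the threshold. In deposited signal AHA1 was at 101% and 97.5% of wild type on the aha2-4 arrays, on both sides of it, so the sides at AHA1 rest on the normalization. Relative to the median of the longest 10% of genes, AHA2 was at -0.24 and -0.58 on the aha1-6 arrays. On the aha1-7 array it was at -0.18, on the same side.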

How the results depend on the processing

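The low signal of each pump in its own mutant kept its direction under all alternatives run, and the size depended on which alleles were averaged. By allele, AHA1 in aha1-7 alone was at -7.57 and AHA2 in aha2-5 alone at -0.61. Leaving out 1 array at a time gave -4.53 to -1.43 for AHA1 in aha1 (the latter without aha1-7) and -4.17 to -2.44 for AHA2 in aha2. For the unmutated pump the ranges included 0, at -0.77 to 0.18 for AHA2 in aha1 and -0.46 to 0.97 for AHA1 in aha2, with no call in any of them. The fit adjusts for set, and only the second set holds aha1-7. Removing the gene length trend gave 0.31 for AHA1 in aha2 and -0.44 for AHA2 in aha1. With no set term, that is without the replicate block, the values were -3.45 and 0.02 for AHA1 in aha1 and aha2 and -0.11 and -2.99 for AHA2; with set as a random replicate block they were -3.43, 0.04, -0.13 and -3.01. Neither changed a call. Leaving out 1 array at a time gave 0 calls over all probe sets in each comparison. With the dimmest 50% left out, 3 passed for aha2 against wild type and 20 for aha1 against aha2. With aha1-7 also left out, 28, 62 and 352 passed for aha1 and aha2 against wild type and aha1 against aha2, and with aha2-5 left out too, an alternative chosen after seeing the data, 48, 66 and 572. The unmutated pump was in none of the counts against wild type.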

Other observations

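Without the aha1-7 array, a choice made after seeing the data, the named probe set most like AHA1 over the remaining 7 arrays was AT3G23570 (Pearson's r = 0.98, as a description). Its signal was 2040.1 and 2091 in wild type, 1240.1 and 1193 in aha1-6, and 2241, 2178 and 2052 in aha2. On the left-out aha1-7 array it was 841, so that wild type, aha1-6 and aha1-7 stood in the same order as at AHA1. AT1G15140 (r = 0.97) had 5089.5 and 5089.6 in wild type, 3671 and 3642 in aha1-6 and 2949 in aha1-7, with 4780.2 to 5226 in aha2. The next, AT1G52670 (r = 0.96), did not keep this order, with 1339 and 1579 in aha1-6 and 1641 in aha1-7. AT5G41400 (r = 0.95) had 447 and 450 in aha1-6 and 397 in aha1-7. AT4G35320 (r = 0.95) had 640 and 595 in aha1-6 and 593 in aha1-7, close to the lower aha1-6 array. AT5G41400 and AT4G35320 span 901 and 962 bases, in the shortest class of genes. The median log2 difference of that class from wild type on the aha1-7 array was -0.79. There these genes lay above it, at -0.53 and -0.41. AT3G23570 and AT1G15140, at -1.38 and -0.84, lay below their length class median of -0.10. AT1G52670, at -0.40, lay below its class median of 0.06. The share of all probe sets in the order of AHA1 was not counted.

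For AHA2 over the same 7 arrays the closest was AT1G54500 (r = 0.98). On the left-out aha1-7 array AT1G54500 had 5706, below the 8119 to 9785 of the other arrays, whereas AHA2 was at its highest there. MCCA, which encodes a subunit of methylcrotonyl-CoA carboxylase of leucine breakdown, followed with r = 0.97. Its signal was 801 and 797 in wild type, 492 and 448 in aha2-4 and 760.3 in aha2-5, with 934 and 825 in aha1-6. On the aha1-7 array it was 1604, the highest of all. Of the genes next in likeness, AT1G02080 had a log2 difference from wild type of 0.43 on that array. AT5G27290 and AT1G75860 were at -0.44 and -0.20 there. MCCA spans 4641 bases, in the longest 10% of genes, where the median log2 difference from wild type on that array was 0.46 and the 95th percentile 1.08, against 0.96 for MCCA. The place of the aha2-5 array near wild type is what the measure of likeness selects for.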
